A study of Homo sapiens with 6 samples.

Results

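The genes described here make cholesterol and fatty acids under the control of the sterol regulatory element-binding proteins (SREBPs). They are 31 genes listed by symbol, of 58299 in the deposited table, and all 31 were found there. They fall into 19 enzymes of sterol synthesis, 5 genes that regulate SREBP or carry sterols, and 7 enzymes of fatty-acid synthesis. Measured values were not used to choose them, but results of these data were known when they were listed.

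Polyadenylated RNA was sequenced in AC16, a human line derived by fusing primary cells of adult ventricle with a fibroblast line, grown in medium with 10% serum. Of the 6 libraries, 3 came from cells that had 100 nM CDDO-Me for 24 h and then 100 nM doxorubicin for 48 h, and 3 from cells kept in 0.1% DMSO for the same 72 h. CDDO-Me (bardoxolone methyl) is a triterpenoid that releases NRF2 from KEAP1, and doxorubicin is an anthracycline that poisons topoisomerase II. The labels define the comparison of the drug sequence with vehicle, and cells given a single drug were not analysed here, so no change can be assigned to either drug. AC16 is a single line, the labels give no separate cultures or days for replicates, so a p-value here reflects only how far these libraries scatter, and that scatter may be technical. Whether CDDO-Me stayed on the cells during the doxorubicin phase is not stated in the labels.

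SREBPs are made as membrane proteins of the endoplasmic reticulum. SCAP escorts them to the Golgi, where proteases release the active factor, and INSIG proteins hold SCAP back when sterols are plentiful. SREBP2, from SREBF2, mainly drives genes of cholesterol synthesis and uptake. SREBP1 isoforms also drive genes of fatty-acid synthesis, and the liver X receptor raises some of these genes when oxysterols are abundant.

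Counts in genes ranged from 17150259 to 20193957 per library. Levels below are CPM (counts scaled by library size and edgeR's TMM factors), and a log2 change is the fitted treated minus DMSO difference with its standard error (SE). A gene was called when the Benjamini-Hochberg adjusted p of edgeR's quasi-likelihood test, taken over all 15575 genes tested, was below 0.05. Of these genes 63.5% were called, 32.3% higher and 31.2% lower in treated cells, and the median log2 change was 0.02. Of 14 cardiomyocyte marker genes, 2 passed the filter on low counts (GATA4 and NPPB); TNNI3 had no count, and MYH6, MYH7, TNNT2 and NKX2-5 had at most 10 counts over all 6 libraries. All 12 fibroblast markers passed it. GATA4, a cardiac transcription factor, was present at 14.3 ± 2.19 CPM in treated and 17.9 ± 2.12 CPM in DMSO libraries. The study's title calls the cells cardiomyocytes, and their contractile markers were at or near 0 while GATA4 was not. Markers of adipocytes and hepatocytes, other cells that make much lipid, were near the floor, with 1 of 8 tested in each list. Summed over the list, adipocyte markers held 5.11 to 6.09 TPM in treated and 3.05 to 3.79 TPM in DMSO libraries, and hepatocyte markers 1.36 to 2.79 TPM in treated and 0.617 to 0.690 TPM in DMSO libraries (TPM, which takes gene length into account). TTR, a defining hepatocyte marker, had no count.

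Upstream sequence is shown for 7 genes on which the results turn: SREBF2, the gene of the factor itself; SCD, DHCR7 and MVK, which fell steeply; TM7SF2 and FADS1, which rose; and FADS2, the neighbour of FADS1, which fell. For DHCR7 and FADS2, which have 2 starts in the table, 1 is shown. Each run is the 250 bases before an annotated transcript start, 5′ to 3′ on the strand of the gene, from the RefSeq promoter table (GRCh38.p14). Capitals mark the sterol regulatory element TCACNCCAC or its shorter form CACNCCAC, and the NF-Y box CCAAT, on either strand (ATTGG is CCAAT on the other strand). NF-Y is known to bind beside SREBP at many lipid genes.

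SREBF2, chr22:41832855-41833104, plus strand: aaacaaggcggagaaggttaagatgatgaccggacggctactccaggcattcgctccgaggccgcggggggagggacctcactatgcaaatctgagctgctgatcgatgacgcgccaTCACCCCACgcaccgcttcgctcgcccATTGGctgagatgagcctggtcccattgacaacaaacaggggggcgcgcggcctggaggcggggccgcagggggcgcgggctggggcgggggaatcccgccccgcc

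SCD, chr10:100346983-100347232, plus strand: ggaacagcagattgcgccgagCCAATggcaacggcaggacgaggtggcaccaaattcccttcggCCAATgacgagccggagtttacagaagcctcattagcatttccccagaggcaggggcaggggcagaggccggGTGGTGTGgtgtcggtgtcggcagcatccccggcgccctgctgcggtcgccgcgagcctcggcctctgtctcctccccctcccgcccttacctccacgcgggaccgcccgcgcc

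DHCR7, chr11:71448394-71448643, minus strand: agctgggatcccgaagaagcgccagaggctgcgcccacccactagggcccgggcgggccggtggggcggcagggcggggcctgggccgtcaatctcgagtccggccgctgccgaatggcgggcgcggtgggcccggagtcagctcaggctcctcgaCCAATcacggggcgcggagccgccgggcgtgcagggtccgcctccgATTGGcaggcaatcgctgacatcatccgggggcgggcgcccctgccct

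MVK, chr12:109573544-109573793, plus strand: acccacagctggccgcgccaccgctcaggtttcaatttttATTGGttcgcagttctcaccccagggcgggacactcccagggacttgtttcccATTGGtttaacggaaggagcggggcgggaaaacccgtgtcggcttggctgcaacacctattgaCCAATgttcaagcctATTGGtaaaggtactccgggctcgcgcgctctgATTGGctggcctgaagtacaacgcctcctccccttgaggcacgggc

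TM7SF2, chr11:65111622-65111871, plus strand: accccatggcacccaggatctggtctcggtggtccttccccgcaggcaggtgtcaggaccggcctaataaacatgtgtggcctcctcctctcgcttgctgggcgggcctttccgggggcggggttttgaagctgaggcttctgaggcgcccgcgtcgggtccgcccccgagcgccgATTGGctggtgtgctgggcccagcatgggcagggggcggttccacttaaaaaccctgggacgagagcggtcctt

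FADS1, chr11:61817004-61817253, minus strand: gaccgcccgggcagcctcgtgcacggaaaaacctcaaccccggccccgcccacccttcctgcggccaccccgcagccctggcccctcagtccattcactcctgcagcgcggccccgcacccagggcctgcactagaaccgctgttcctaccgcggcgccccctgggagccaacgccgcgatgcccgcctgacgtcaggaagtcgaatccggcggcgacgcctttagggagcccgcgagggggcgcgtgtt

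FADS2, chr11:61816154-61816403, plus strand: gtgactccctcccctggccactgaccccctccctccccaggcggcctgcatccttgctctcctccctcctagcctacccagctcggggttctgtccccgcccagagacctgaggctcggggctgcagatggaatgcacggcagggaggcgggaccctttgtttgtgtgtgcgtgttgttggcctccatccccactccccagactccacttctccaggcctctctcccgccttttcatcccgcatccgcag

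Promoter windows of 300 bases, the 250 above plus 50 after the start, were held for 27 of the 31 genes, 39 windows in all since some genes have several starts. ACAT2, FDFT1, SQLE and FASN had none in the table. The NF-Y box was in 25 of the 39 windows (64.1%), against 34.5% of 16470 windows of genes tested and 34.6% of all 35116. The Sp1 box GGGCGG was in 34 of the 39 (87.2%), against 64.7% of windows of genes tested and 45.0% of all. The shorter sterol element CACNCCAC was in 7 (17.9%), against 5.94% of windows of genes tested and 5.87% of all. Every TCACNCCAC match also contains CACNCCAC, and the longer form was in a single window of the 39, that of SREBF2, 133 bases before the start, against 1.06% of windows of genes tested and 1.13% of all. The E-box CACGTG was in 5 (12.8%), against 9.03% and 7.26%. Windows of the same gene can overlap, so a match can be counted more than once, as the shorter sterol element of SC5D was. Counted by gene, the NF-Y box was in 21 of the 27 genes and the Sp1 box in 26. The shorter sterol element was in 6 of the 27, the longer form in 1 and the E-box in 4. These matches are letters in a window and were not tested as sites. By group, the NF-Y box was in 16 of 23 windows of sterol enzymes, 3 of 6 of the regulators and carrier, and 6 of 10 of fatty-acid enzymes. The printed MVK run holds 5 NF-Y boxes, those of SCD and DHCR7 hold 2 each, TM7SF2 holds 1 and FADS1 none. In FADS2 the single box lies 5 bases after the start and so outside the printed run. The DHCR7 window that is not printed holds no NF-Y box. CYP51A1, ELOVL6 and SCAP fell and have none in their windows. PMVK and INSIG2, which were not called, and FADS1, which rose, have none either. GGPS1 and HSD17B7 were not called and have such boxes. Most printed genes were picked by how they moved, and a relation between boxes and change was not tested.

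Most genes of both branches fell in treated cells, and a single gene in each branch rose. Of the 19 sterol enzymes, 15 fell, 1 rose and 3 were not called. Of the 7 fatty-acid enzymes, 6 fell and 1 rose. Of the 5 regulators and carrier, 4 fell and 1 was not called. Together 25 of 31 fell, 80.6%, where 31.2% of all genes tested did, and 2 rose, where 32.3% of all genes tested did. At least 2-fold decreases were seen in 8 of the 31, against 4.62% of all genes tested, and at least 2-fold increases in 2, against 10.9% of all genes tested. The treated and DMSO libraries did not overlap in 28 of the 31, against 66.7% of all genes tested.

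The median log2 change was -0.55 over the sterol enzymes, -0.31 over the regulators and carrier and -0.78 over the fatty-acid enzymes, beside 0.02 over all genes tested. The sterol median was thus 0.24 higher than the fatty-acid median, a difference given as a description with no test. Both branches spanned a wide range, -1.81 to 1.92 among the sterol enzymes and -2.29 to 1.13 among the fatty-acid enzymes, so the ranges of the branches overlap over most of their width. Relative to the DMSO mean of each gene, the median of the sterol enzymes lay between -0.57 and -0.51 log2 units in the treated libraries and between -0.03 and 0.04 in the DMSO libraries. The median of the fatty-acid enzymes lay between -0.82 and -0.78 in treated and between -0.01 and 0.00 in DMSO libraries.

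**Figure D1:**
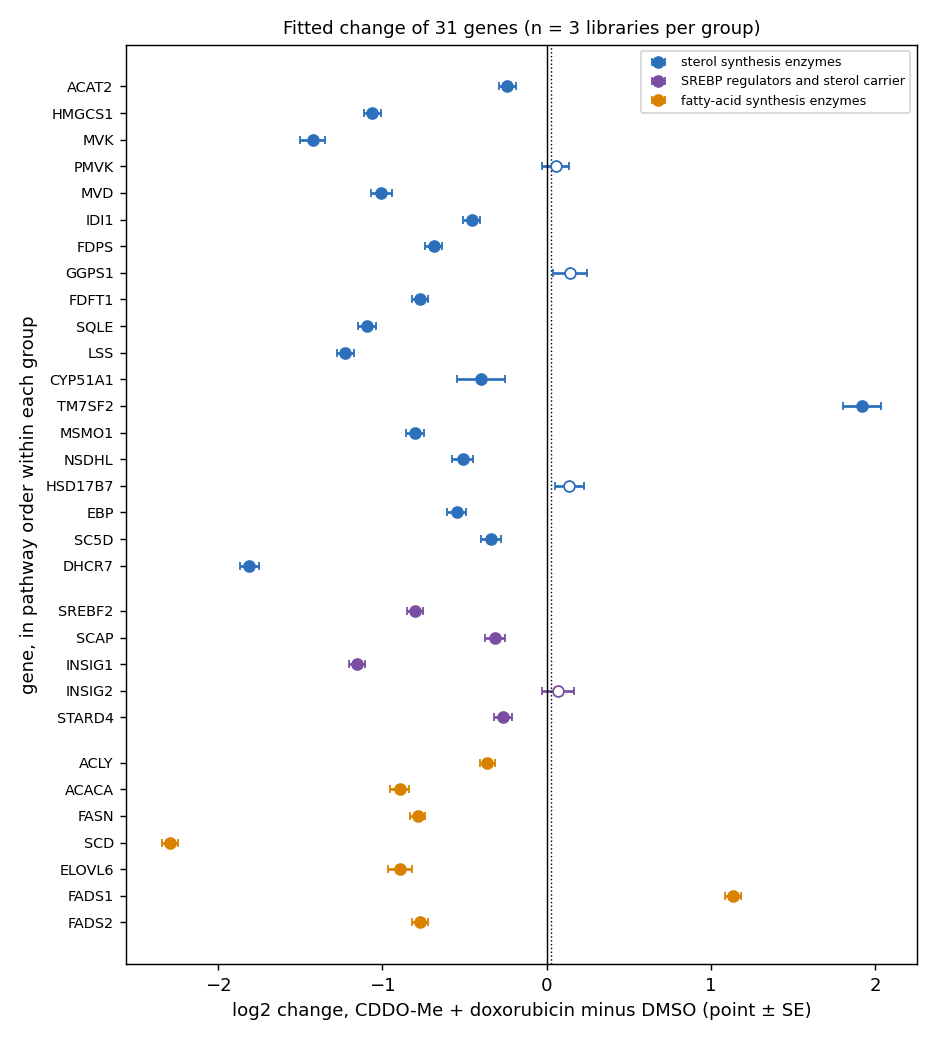
Fitted log2 change of each of the 31 genes (x axis, treated minus DMSO, point ± SE, n = 3 libraries per group), in pathway order within each group; filled points were called and open points were not, and the dotted line is the median of all genes tested. The points lie left of 0 except for TM7SF2 and FADS1, which rose, and PMVK, GGPS1, HSD17B7 and INSIG2, which were not called.

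**Figure D2:**
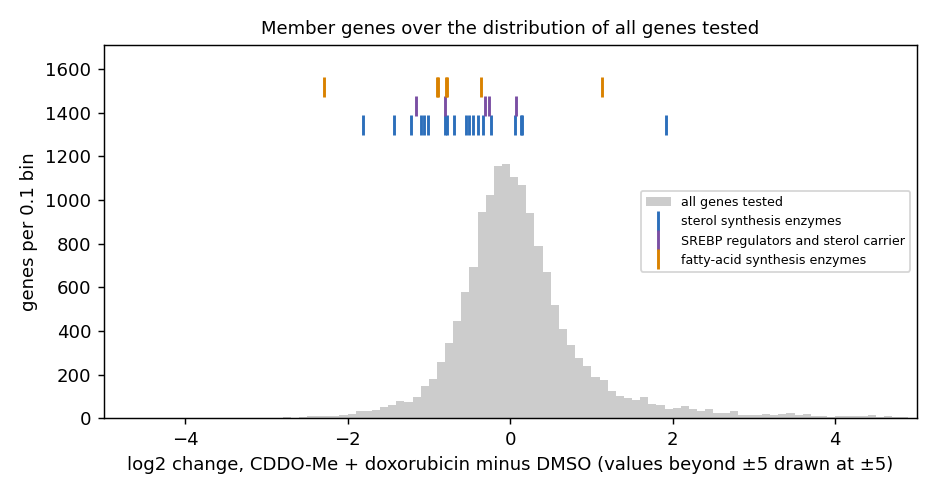
Histogram of the log2 change of all 15575 genes tested (y axis, genes per 0.1-wide bin) with a tick above it for each of the 31 genes, coloured by group. Most ticks sit on the left flank of the histogram, and SCD, at -2.29, is the leftmost.

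Sterol synthesis begins with the mevalonate pathway, which turns acetyl-CoA into isoprenoid units. HMGCS1, the cytosolic HMG-CoA synthase (ENSG00000112972, GRCh38 chromosome 5, 43289395 to 43313512), had 90.1, 87.4 and 90.4 CPM in treated libraries, against 175, 198 and 186 CPM in DMSO libraries. Every treated library lay below every DMSO library, and the log2 change was -1.06 (SE 0.053, edgeR adjusted p = 5.45e-27). MVK, mevalonate kinase (ENSG00000110921, chromosome 12, 109573255 to 109598117), had 21.2, 19.6 and 20.7 CPM in treated libraries, against 57.3, 57.0 and 51.0 CPM in DMSO libraries. The groups were far apart, with a log2 change of -1.42 (SE 0.075, edgeR adjusted p = 8.83e-26). The next kinase of the pathway, PMVK (phosphomevalonate kinase), had 29.3, 26.6 and 28.1 CPM in treated libraries, against 24.6, 28.2 and 27.9 CPM in DMSO libraries. These values overlap, and the log2 change of 0.06 (SE 0.082) was not called (edgeR adjusted p = 0.565). MVD, the decarboxylase that follows, had 42.3, 42.9 and 40.7 CPM in treated libraries, against 89.7, 82.6 and 80.2 CPM in DMSO libraries. It fell by 1.01 on the log2 scale (SE 0.062) with no overlap between groups. MVK, PMVK and MVD act one after another, and the enzyme between 2 that fell at least 2-fold was not called.

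The other early enzymes fell less or, in the case of GGPS1, were not called. ACAT2, the cytosolic thiolase that joins acetyl-CoA units, averaged 161 ± 7.95 CPM in treated and 190.0 ± 8.54 CPM in DMSO libraries (SD, n = 3 each), a log2 change of -0.24 (SE 0.050). Of its exon bases 52.3% lie in exons of other genes, mainly SOD2-OT1, which held 2 counts over all libraries. IDI1, the isopentenyl diphosphate isomerase, averaged 122 ± 5.20 CPM in treated and 167 ± 12.6 CPM in DMSO libraries, a log2 change of -0.46 (SE 0.053). FDPS, farnesyl diphosphate synthase, averaged 81.8 ± 1.67 CPM in treated and 132 ± 3.97 CPM in DMSO libraries, a log2 change of -0.69 (SE 0.053). GGPS1 draws farnesyl diphosphate off towards geranylgeranyl groups and away from sterols. It had 14.9, 15.6 and 16.8 CPM in treated libraries, against 14.0, 14.0 and 14.8 CPM in DMSO libraries. The groups barely separate, and the log2 change of 0.14 (SE 0.102) was not called (edgeR adjusted p = 0.216). Of its exon bases 41.0% lie in exons of other genes.

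From squalene onward the enzymes build and trim the sterol ring. FDFT1, squalene synthase, averaged 167 ± 7.29 CPM in treated and 286 ± 10.7 CPM in DMSO libraries, a log2 change of -0.77 (SE 0.049). SQLE, squalene epoxidase and a rate-limiting step of the pathway, had 68.4, 68.4 and 67.2 CPM in treated libraries, against 145, 142 and 148 CPM in DMSO libraries. Both groups were tight and well apart, with a log2 change of -1.09 (SE 0.053, edgeR adjusted p = 2.24e-27). LSS, lanosterol synthase, which closes the rings, had 75.0, 81.0 and 82.8 CPM in treated libraries, against 189.5, 192 and 177 CPM in DMSO libraries. Its log2 change was -1.23 (SE 0.053), again with no overlap. Thus all 3 enzymes from squalene synthesis to lanosterol fell.

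CYP51A1, the lanosterol demethylase (ENSG00000001630, chromosome 7, 92112151 to 92142952), had 5.83, 5.36 and 6.32 CPM in treated libraries, against 9.07, 6.89 and 7.15 CPM in DMSO libraries. The treated libraries were all lower, but by little, and the log2 change of -0.40 (SE 0.147) was called at an edgeR adjusted p of 0.0156. It rested on 109 to 158 counts per library. The call was lost without treated replicate 2 (-0.35), without DMSO replicate 1 (-0.27) and with total-count scaling (-0.27). Of its exon bases 82.2% lie in exons of other genes, chiefly LRRD1 on the same strand, which held 14 counts over all 6 libraries, against 768 for CYP51A1. No source used here says how reads in overlapping exons were counted, and the part of this overlap in its low level was not tested.

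Among the enzymes after lanosterol, TM7SF2 alone rose and DHCR7 fell the most. TM7SF2 and DHCR7 both encode sterol reductases, TM7SF2 the C14 reductase of early post-lanosterol steps, an activity shared with the lamin B receptor, and DHCR7 the enzyme that makes cholesterol from its dehydro precursor. TM7SF2 (ENSG00000149809, chromosome 11, 65111845 to 65116384) had 25.0, 23.2 and 23.2 CPM in treated libraries, against 5.51, 7.56 and 5.85 CPM in DMSO libraries. Every treated library was above every DMSO library, and TM7SF2 rose by 1.92 on the log2 scale (SE 0.114, edgeR adjusted p = 3.59e-23), 3.79-fold. DHCR7 (ENSG00000172893, chromosome 11, 71428193 to 71452868) had 44.1, 41.9 and 40.8 CPM in treated libraries, against 150.0, 156 and 139 CPM in DMSO libraries. It had the largest decrease among the sterol enzymes, with a log2 change of -1.81 (SE 0.058, edgeR adjusted p = 9.98e-37), and ranked 137 of the 15575 genes tested, counted from the most lowered. In TPM, TM7SF2 stood at 0.688 ± 0.009 of DHCR7 in treated and 0.0518 ± 0.007 of it in DMSO libraries.

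The remaining steps fell moderately or were not called. MSMO1, the C4 methylsterol oxidase, averaged 70.3 ± 3.31 CPM in treated and 123 ± 3.33 CPM in DMSO libraries, a log2 change of -0.80 (SE 0.055). NSDHL, its partner dehydrogenase in C4 demethylation, averaged 48.8 ± 2.01 CPM in treated and 69.5 ± 1.71 CPM in DMSO libraries, a log2 change of -0.51 (SE 0.061). HSD17B7, the ketoreductase that completes each C4 demethylation round, had 23.1, 22.1 and 22.6 CPM in treated libraries, against 19.5, 22.5 and 19.6 CPM in DMSO libraries. The groups overlap through DMSO replicate 2, and the log2 change of 0.14 (SE 0.089) was not called (edgeR adjusted p = 0.174). HSD17B7 has 2 annotated pseudogene copies, whose counts came to 9.88% of its own, so reads could be split between them. EBP, the sterol isomerase, averaged 55.8 ± 1.30 CPM in treated and 81.6 ± 3.27 CPM in DMSO libraries (log2 change -0.55, SE 0.059). SC5D, the sterol desaturase, averaged 52.2 ± 1.86 CPM in treated and 65.9 ± 2.94 CPM in DMSO libraries (log2 change -0.34, SE 0.062). So of the 3 C4 demethylation genes, MSMO1 and NSDHL fell and HSD17B7 was not called.

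Among the regulators, SREBF2 (ENSG00000198911, chromosome 22, 41833079 to 41907308), whose upstream run carries the sterol element, had 173, 186 and 179 CPM in treated libraries, against 332, 305 and 300.1 CPM in DMSO libraries. The groups were well apart, with a log2 change of -0.80 (SE 0.049, edgeR adjusted p = 1.42e-22). Its transcript measures the precursor, and the cleaved protein was not measured. SCAP, the escort, averaged 54.7 ± 1.94 CPM in treated and 68.0 ± 5.02 CPM in DMSO libraries, a log2 change of -0.31 (SE 0.062). The INSIG paralogs, which retain SCAP, differed. INSIG1, itself an SREBP target (ENSG00000186480, chromosome 7, 155297776 to 155310235), had 92.6, 89.8 and 91.0 CPM in treated libraries, against 199.7, 211 and 197 CPM in DMSO libraries. It fell by 1.15 on the log2 scale (SE 0.051, edgeR adjusted p = 1.50e-29). INSIG2 had 21.1, 20.5 and 17.5 CPM in treated libraries, against 17.7, 18.9 and 19.5 CPM in DMSO libraries. These overlap, and the log2 change of 0.07 (SE 0.095) was not called (edgeR adjusted p = 0.534). Within libraries the INSIG1 level in TPM was 4.76, 4.74 and 5.64 times that of INSIG2 in treated and 12.2, 12.1 and 10.9 times in DMSO libraries, so INSIG1 was the higher of the pair in all 6. STARD4, which carries cholesterol between membranes, averaged 68.1 ± 1.75 CPM in treated and 81.8 ± 3.01 CPM in DMSO libraries, a log2 change of -0.26 (SE 0.058).

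In the fatty-acid branch, ACLY cleaves citrate to cytosolic acetyl-CoA and so feeds both branches. It had 511, 533 and 543 CPM in treated libraries, against 693, 659 and 685 CPM in DMSO libraries, the smallest change of the 7 (log2 change -0.36, SE 0.045). ACACA, acetyl-CoA carboxylase, averaged 60.8 ± 4.97 CPM in treated and 113 ± 4.18 CPM in DMSO libraries (log2 change -0.89, SE 0.058). FASN, fatty acid synthase, averaged 268 ± 6.18 CPM in treated and 461 ± 27.2 CPM in DMSO libraries (log2 change -0.78, SE 0.047). ELOVL6, which lengthens the palmitate that FASN makes, averaged 24.6 ± 0.694 CPM in treated and 45.7 ± 2.09 CPM in DMSO libraries (log2 change -0.89, SE 0.074). ACACA, FASN and ELOVL6 thus fell by like amounts, between 0.78 and 0.89 on the log2 scale in size.

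Among the desaturases, SCD and FADS1 were the extremes of the branch, and FADS2 lay between them. SCD, stearoyl-CoA desaturase, which makes monounsaturated fatty acids (ENSG00000099194, chromosome 10, 100347124 to 100364834), had 114, 118 and 119 CPM in treated libraries, against 572, 576 and 576 CPM in DMSO libraries. The replicates nearly coincide and the groups lie 4.90-fold apart, a log2 change of -2.29 (SE 0.048, edgeR adjusted p = 1.04e-46). SCD had the largest decrease of the 31 and ranked 53 of the 15575 genes tested, counted from the most lowered. FADS1, the delta-5 desaturase of polyunsaturated fatty acids (ENSG00000149485, chromosome 11, 61799625 to 61829318), had 578, 641 and 614 CPM in treated libraries, against 271, 286 and 278 CPM in DMSO libraries. It rose by 1.13 on the log2 scale (SE 0.047, edgeR adjusted p = 5.84e-31), with every treated library above every DMSO library. FADS2, the delta-6 desaturase that acts before FADS1 in the same route (ENSG00000134824, chromosome 11, 61792980 to 61867354), had 152, 161 and 150.1 CPM in treated libraries, against 263, 275 and 255 CPM in DMSO libraries. It fell by 0.77 on the log2 scale (SE 0.049, edgeR adjusted p = 6.48e-22).

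FADS1 and FADS2 are neighbours on opposite strands whose annotated spans share 29694 bases, with 490 exon bases in common (5.57% of FADS1 and 4.89% of FADS2). The libraries carry no strand, so reads in the shared exon bases cannot be told apart, while the counts of each gene came to 52644 for FADS1 and 23428 for FADS2 over all libraries. The ratio of FADS1 to FADS2 in TPM was 4.10, 4.28 and 4.41 in treated libraries, against 1.11, 1.12 and 1.18 in DMSO libraries. SCD stood at 0.377, 0.352 and 0.371 of FADS1 in treated libraries, against 4.02, 3.85 and 3.95 times FADS1 in DMSO libraries, so the order of SCD and FADS1 was turned round in every treated library.

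**Figure D3:**
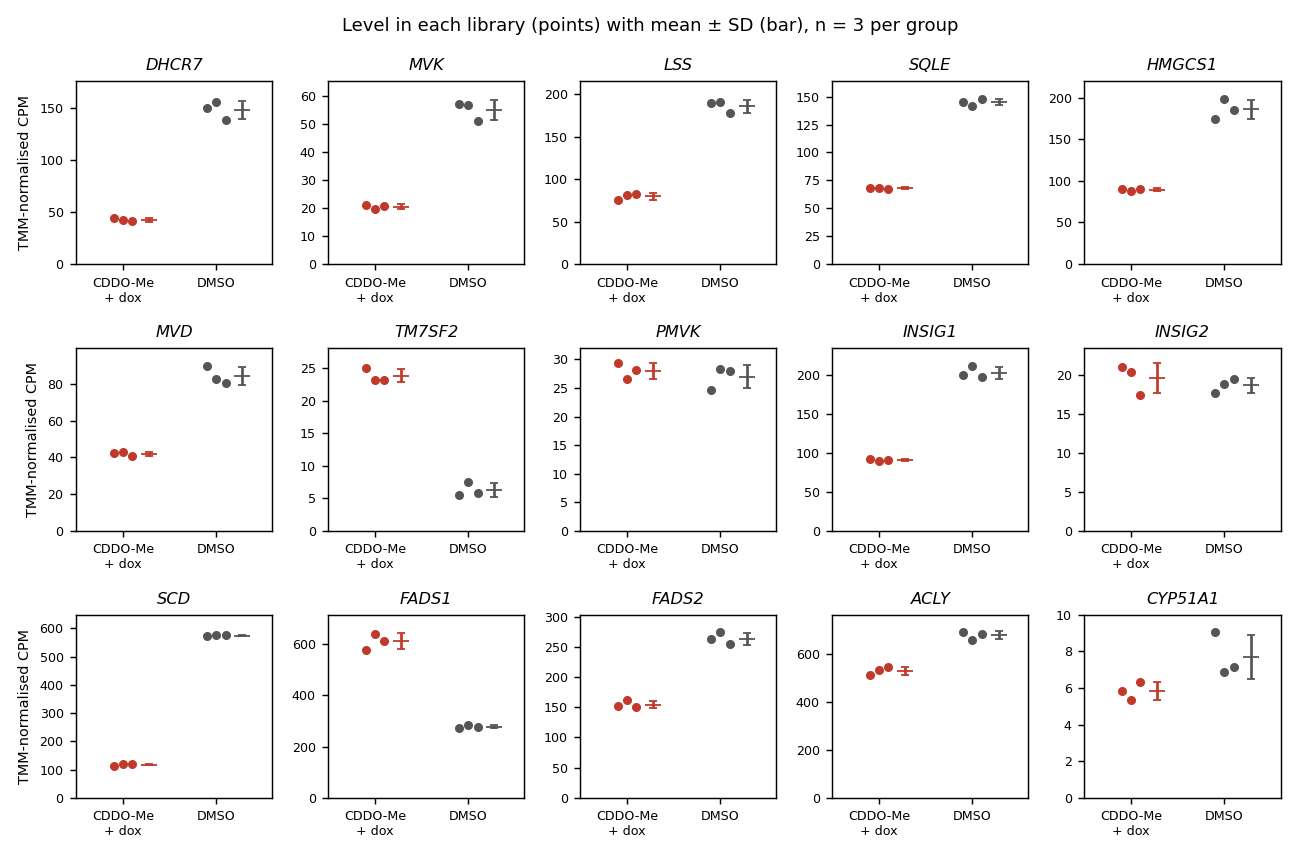
TMM-normalised CPM (y axis, from 0) of 15 of the genes in each library, treated left and DMSO right, as points with the mean ± SD beside them (n = 3 per group). TM7SF2 and FADS1 are higher in all treated libraries, PMVK and INSIG2 overlap, and the other 11 are lower in all treated libraries.

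Levels per gene length were compared in TPM, which is scaled to the whole library and carries no TMM factor. In DMSO libraries ACLY was highest at 556 ± 14.1 TPM, then SCD at 458 ± 4.39, INSIG1 at 237 ± 8.58 and FDFT1 at 235 ± 8.91 TPM; the last 2 did not differ beyond their spread. In treated libraries ACLY was again highest at 454 ± 16.3 TPM, then FADS1 at 268 ± 13.1, ACAT2 at 168 ± 6.92 and FDFT1 at 144 ± 5.95 TPM. SCD moved to place 13 in treated libraries, at 98.0 ± 2.61 TPM, against place 2 in DMSO libraries, and FADS1 to place 2, against place 16. CYP51A1 and TM7SF2 were the lowest in DMSO libraries, at 8.07 ± 1.21 and 7.90 ± 1.38 TPM, which overlap. In treated libraries TM7SF2 stood at 31.3 ± 1.36 TPM, place 24, and CYP51A1 at 6.42 ± 0.585 TPM, the lowest. The places of CYP51A1 carry the limit given above, that 82.2% of its exon bases lie in exons of other genes. Across the 31 genes the log2 change and the log2 DMSO level had a Pearson correlation of -0.505 (Spearman -0.415), a description over genes that share the same libraries, with the DMSO level entering both.

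**Figure D4:**
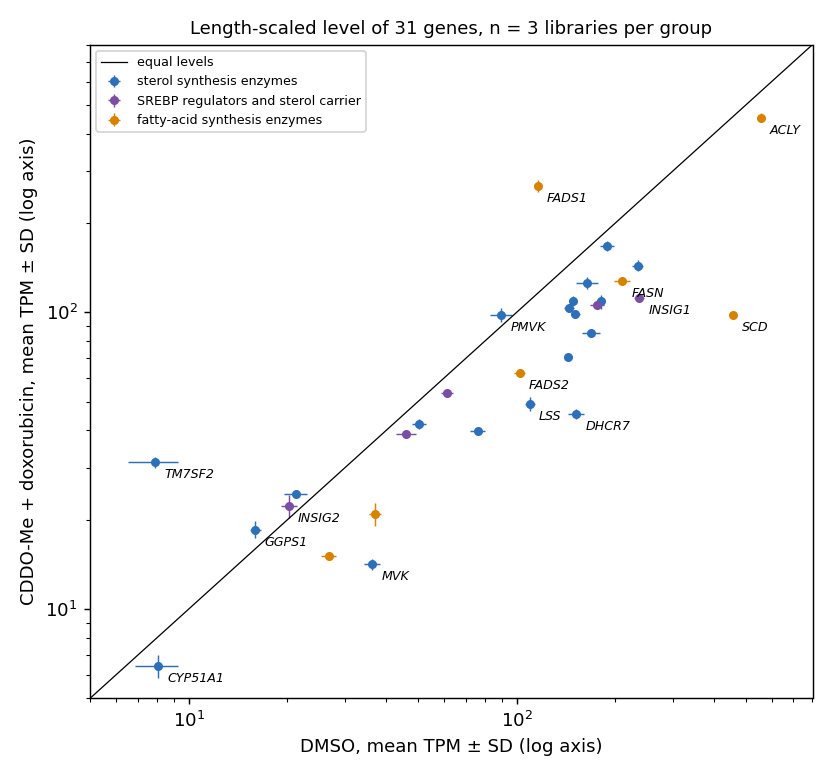
Mean TPM ± SD of each of the 31 genes in treated (y axis) against DMSO libraries (x axis), both log axes, n = 3 libraries per group; the line marks equal levels. FADS1 and TM7SF2 lie well above the line and SCD and DHCR7 farthest below it.

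Summed over the 19 sterol enzymes, the level was 1383 ± 31.5 TPM in treated and 2094 ± 58.4 TPM in DMSO libraries, 66.0% of the DMSO mean. Over the 7 fatty-acid enzymes it was 1046 ± 34.9 TPM in treated and 1506 ± 14.1 TPM in DMSO libraries, 69.5%. Without FADS1 the remaining 6 summed to 779 ± 24.4 TPM in treated and 1390 ± 16.9 TPM in DMSO libraries, 56.0%. FADS1 alone thus raised the treated share of the fatty-acid sum, while leaving TM7SF2 out moved the sterol share to 64.8%. In bulk RNA, fewer cells that express a gene and less of its RNA per cell cannot be told apart.

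Other genes of the route were counted from further lists. Of 13 further genes of the SREBP2 pathway and of sterol uptake, 7 fell, 5 rose and 1 was not called (median -0.21). Those that rose included NPC1 and NPC2, which move cholesterol out of lysosomes, TMEM97, which binds NPC1, and MYLIP, a ubiquitin ligase induced by the liver X receptor. NPC2 averaged 85.7 ± 4.09 CPM in treated and 55.2 ± 1.81 CPM in DMSO libraries (log2 change 0.63, SE 0.059), and MYLIP averaged 17.4 ± 1.12 CPM in treated and 7.17 ± 1.23 CPM in DMSO libraries (log2 change 1.28, SE 0.119). ACSS2, the cytosolic acetyl-CoA synthetase, was not called (log2 change -0.10, SE 0.075). Of 8 genes of SREBP cleavage and degradation, 5 fell, 1 rose and 2 were not called (median -0.25). SREBF1, the gene of the SREBP1 isoforms, had 60.0, 56.4 and 55.6 CPM in treated libraries, against 88.2, 91.6 and 85.1 CPM in DMSO libraries. The groups did not overlap, and its decrease was the largest of the 8 (log2 change -0.62, SE 0.058, edgeR adjusted p = 1.65e-14). RNF145, a ubiquitin ligase of the endoplasmic reticulum, averaged 68.8 ± 5.23 CPM in treated and 94.0 ± 2.79 CPM in DMSO libraries (log2 change -0.45, SE 0.058). Both proteases that release SREBP fell, MBTPS1 by 0.27 (SE 0.047) and MBTPS2 by 0.25 (SE 0.061) on the log2 scale. PAQR3, a Golgi anchor of the SCAP and SREBP complex, was the gene that rose (log2 change 0.22, SE 0.072). Of 23 tested genes of further fatty-acid synthesis, elongation, desaturation and activation, 10 fell, 8 rose and 5 were not called (median -0.10), with 3 more listed genes below the filter. ELOVL2, an elongase of polyunsaturated fatty acids, averaged 26.5 ± 2.35 CPM in treated and 53.4 ± 3.73 CPM in DMSO libraries (log2 change -1.01, SE 0.074). ELOVL7, an elongase of saturated very-long-chain fatty acids, averaged 10.2 ± 1.02 CPM in treated and 5.16 ± 1.21 CPM in DMSO libraries (log2 change 0.98, SE 0.147). Relatives of the desaturases moved apart from SCD and FADS2. SCD5, a second stearoyl-CoA desaturase, averaged 66.7 ± 1.80 CPM in treated and 52.7 ± 1.43 CPM in DMSO libraries (log2 change 0.34, SE 0.061). FADS3, the neighbour of FADS2 in the same gene cluster, averaged 145 ± 9.02 CPM in treated and 91.0 ± 5.38 CPM in DMSO libraries (log2 change 0.67, SE 0.055). ELOVL5, which lengthens the product of FADS2, averaged 196 ± 3.87 CPM in treated and 302 ± 17.1 CPM in DMSO libraries (log2 change -0.63, SE 0.048). The shares called lower in these lists, 53.8%, 62.5% and 43.5%, lay between the 80.6% of the 31 genes and the 31.2% of all genes tested, a description with no test.

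Isoprenoid and dolichol genes branch off at farnesyl diphosphate, as GGPS1 does. Of 12, 6 fell, 2 rose and 4 were not called (median -0.17). NUS1, a subunit of the dolichol-making prenyltransferase, averaged 61.6 ± 2.61 CPM in treated and 93.8 ± 0.410 CPM in DMSO libraries (log2 change -0.61, SE 0.057). RABGGTA, a subunit of the transferase that prenylates Rab proteins, averaged 33.8 ± 1.19 CPM in treated and 17.8 ± 1.43 CPM in DMSO libraries (log2 change 0.93, SE 0.085). Of 7 tested genes of cholesterol storage and efflux, 4 rose, 2 fell and 1 was not called (median 0.18). Called lower were 50% of the isoprenoid and dolichol list and 28.6% of the storage and efflux list. Over all genes tested, 31.2% were called lower and 32.3% higher. ABCA1, the liver X receptor target that exports cholesterol, had 73.2, 80.6 and 72.5 CPM in treated libraries, against 3.50, 4.66 and 3.95 CPM in DMSO libraries. It rose by 4.22 on the log2 scale (SE 0.096, edgeR adjusted p = 9.26e-45). SCD, which the liver X receptor is known to raise in liver, fell. The part of this receptor in the change of either gene was not tested. APOE, a lipoprotein component that accepts exported cholesterol, averaged 7.92 ± 0.113 CPM in treated and 3.12 ± 0.543 CPM in DMSO libraries (log2 change 1.34, SE 0.167).

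Genes of mitosis and of fibroblast matrix moved with the lipid genes. All 18 mitosis genes fell (median log2 change -1.29), and their summed level was 2257 to 2424 TPM in treated and 5107 to 5269.6 TPM in DMSO libraries. PLK1, a mitotic kinase, averaged 59.1 ± 2.42 CPM in treated and 304 ± 19.8 CPM in DMSO libraries, and CCNB1, cyclin B1, 95.4 ± 8.01 CPM in treated and 383 ± 7.83 CPM in DMSO libraries. Of 12 fibroblast markers 11 fell (median -1.55), with a sum of 4401 to 4569 TPM in treated and 8574 to 9139 TPM in DMSO libraries. PDGFRB, a platelet-derived growth factor receptor, averaged 25.9 ± 1.49 CPM in treated and 138 ± 4.17 CPM in DMSO libraries, and COL3A1, a fibrillar collagen, 530.5 ± 26.2 CPM in treated and 2137 ± 71.3 CPM in DMSO libraries. VIM, vimentin, was not called (2156 ± 72.6 CPM in treated and 2201 ± 65.8 CPM in DMSO libraries). The part of cell division and of matrix-producing state in the decrease of the lipid genes was not tested.

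Tested against a 1.5-fold change with glmTreat in place of no change, 9 of the 19 sterol enzymes, 2 of the 5 regulators and carrier and 5 of the 7 fatty-acid enzymes were called lower. Of all 15575 genes tested, 1141 were called lower in the same way. With libraries scaled by total counts, PMVK, GGPS1 and HSD17B7 were called higher (log2 changes 0.18, 0.27 and 0.27), so these 3 were called under that scaling and not under TMM. Under it the median over all genes tested was 0.15 on the log2 scale, against 0.02. HMGCS1, SQLE and MVD then fell by less than 2-fold (log2 changes -0.93, -0.96 and -0.88). MVD did so with upper-quartile factors too (-0.95), so the number of 2-fold decreases depends on the scaling.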

How the data were processed

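Per the labels' protocols, unstranded poly(A)-selected TruSeq libraries were made from AC16 monolayers. The deposited table holds raw counts for 58299 Ensembl identifiers, with exon coordinates and gene length. Its build is hg38 (GRCh38), and STAR, featureCounts from Subread and SAMtools were used, per the submitters' processing notes; no source used here names the annotation release, versions or counting options. Symbols were assigned by Ensembl identifier (58179 matched); 30 of the 31 genes had the same start and end in GENCODE release 29.

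The grouping follows the titles: 3 treated and 3 DMSO libraries. Genes passing filterByExpr (minimum count 10) were TMM-normalised and compared by the quasi-likelihood test of edgeR 4.0.16 under R 4.3.3, Benjamini-Hochberg adjusted over 15575 genes, threshold 0.05. Dividing a log2 change by the root of its F statistic gave the SE. TPM used the deposited gene length. Exon overlap used the table's own coordinates, and promoter windows came from RefSeq (GRCh38.p14). Replicate pairs differed by more than sampling noise (chi-square per degree of freedom 2.84 to 3.77), so none was merged. Counts and this added scatter both set the precision: the SE of log2 changes of the 31 genes was 0.045 to 0.147.

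All 31 genes were named, with every library's value for those changed at least 2-fold, the least changed of each group and those that moved against their group; FADS2, CYP51A1, GGPS1, HSD17B7 and SREBF2 were given so after their values were seen. From other lists the 2 with the largest change at 5 CPM or more were named; some that this took are not reported here. The further genes of the sterol, SREBP cleavage and fatty-acid lists other than SREBF1, RNF145, ELOVL2 and ELOVL7, and VIM, were picked with their values in view. The members and lists were chosen with earlier results of these data known. The alternatives tried were scaling by total counts, RLE or upper quartiles, 2 other filters, DESeq2 1.42.0, limma-voom (limma 3.58.1), a replicate block, each library left out, adjusted p below 0.01, glmTreat, and branches without shared or side-branch genes. Protein sequences were not used here.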

Additional observations from a re-analysis of the deposited data

How the results depend on the processing

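Of 434 refits of the 31 single genes under 14 alternatives, 427 kept the direction and the side of the threshold. The exceptions were CYP51A1, PMVK, GGPS1 and HSD17B7 as given above, and PMVK, not called, which changed sign to -0.0088 without DMSO replicate 1 (range -0.0088 to 0.0881 with a library left out). Counts of called genes stayed within 1.5 times, except that 4 sterol enzymes were called higher with total counts, and that glmTreat called 1852 genes higher and 1141 lower over all, 9 sterol enzymes lower and 2 regulators lower. The replicate block gave 15 sterol and 6 fatty-acid enzymes lower. Same-numbered libraries did not deviate together (correlations -0.022, -0.007 and -0.007). That does not show whether they were cultured or processed together.

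The sterol median was -0.49 with upper-quartile factors, -0.42 with total counts, -0.62 without ACLY and ACAT2 and also without GGPS1, -0.69 without members with over 50% of exon bases in other genes (chosen after seeing the data), and -0.59 to -0.53 with a library left out. The fatty-acid median was -0.73 with upper-quartile factors, -0.66 with total counts, -0.80 with no filter, -0.84 without ACLY and ACAT2, and -0.82 to -0.77 with a library left out. Their difference was 0.17 without GGPS1, 0.10 without the overlapped members, and 0.20 to 0.27 with a library left out. The median of all genes tested, 0.02, was 0.15 with total counts and 0.51 with no filter, where many genes of few counts enter; the higher share of calls, 50.8%, was 63.8% and 55.6%. The cause of these shifts was not tested. Depth limits CYP51A1 most, at 109 to 158 counts per library.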
